A study of Drosophila melanogaster with 24 samples.

Results

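The circadian clock genes examined here are per, tim, Clk, cyc, vri, Pdp1, cry, cwo, dco and sgg, chosen by symbol as the core loop, its light input and 2 of its kinases. They make up 10 of the 17753 genes in the count tables, and all 10 were among the 6147 genes with enough counts to be tested. In the fly clock, the transcription factors CLK and CYC switch on per and tim, whose proteins build up with a delay, enter the nucleus and shut CLK and CYC off. A second loop runs through vri and Pdp1, also CLK-CYC targets, whose proteins repress and activate Clk. Cryptochrome (cry) resets the clock by marking TIM for destruction in light, cwo tunes the amplitude of CLK-CYC targets, and the kinases Doubletime (dco) and Shaggy (sgg) phosphorylate PER and TIM. The clock runs in brain pacemaker neurons and also in photoreceptors, glia and the fat body. Ataxin-2 (Atx2) is known to promote translation of per mRNA in pacemaker neurons.

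RNA was sequenced from heads of adult female Drosophila melanogaster in 3 genotypes, in all of which GAL4 was driven by elav, a neuronal gene. The control (elav>Gal4) carried the driver with no tagged protein, and the other genotypes made FLAG-tagged Nab2 (elav>Nab2-FLAG) or Atx2 with a triple FLAG tag (elav>Atx2-3xFLAG). Nab2 is a polyadenosine RNA-binding protein. Each lysate was made from 300 pooled heads fixed in 1% formaldehyde. A share of 20% of the lysate served as Input, while anti-FLAG beads received the remaining 80% (RIP). With 4 lysates per genotype there were 24 libraries in 6 groups of 4. Neurons carry the driver, whereas the lysate holds every cell type of the head. The fly age and the hour of collection are not given in the sources used here. Total counts per library ran from 511415 to 1091678 in Input and from 220894 to 2109561 in RIP, the shallowest being control and Nab2-FLAG RIP 3. Nab2 RNA was 121 ± 28.8 CPM (library-size-relative TMM-scaled counts, mean ± SD, n = 4) in Nab2-FLAG Input against 24.3 ± 4.53 in control Input. Atx2 RNA was 272 ± 18.8 CPM in Atx2-3xFLAG Input against 255 ± 22.6 in control Input, and these groups overlapped, so that Atx2 RNA did not separate that genotype from control. In Nab2-FLAG Input it was 212 ± 20.5 CPM, with no overlap with Atx2-3xFLAG Input (log2 difference 0.34, edgeR adjusted p = 0.0680). The neuronal marker elav was at 121 ± 19.4 CPM for control Input, 125 ± 8.21 for Nab2-FLAG Input and 141 ± 12.4 for Atx2-3xFLAG Input.

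**Figure D1:**
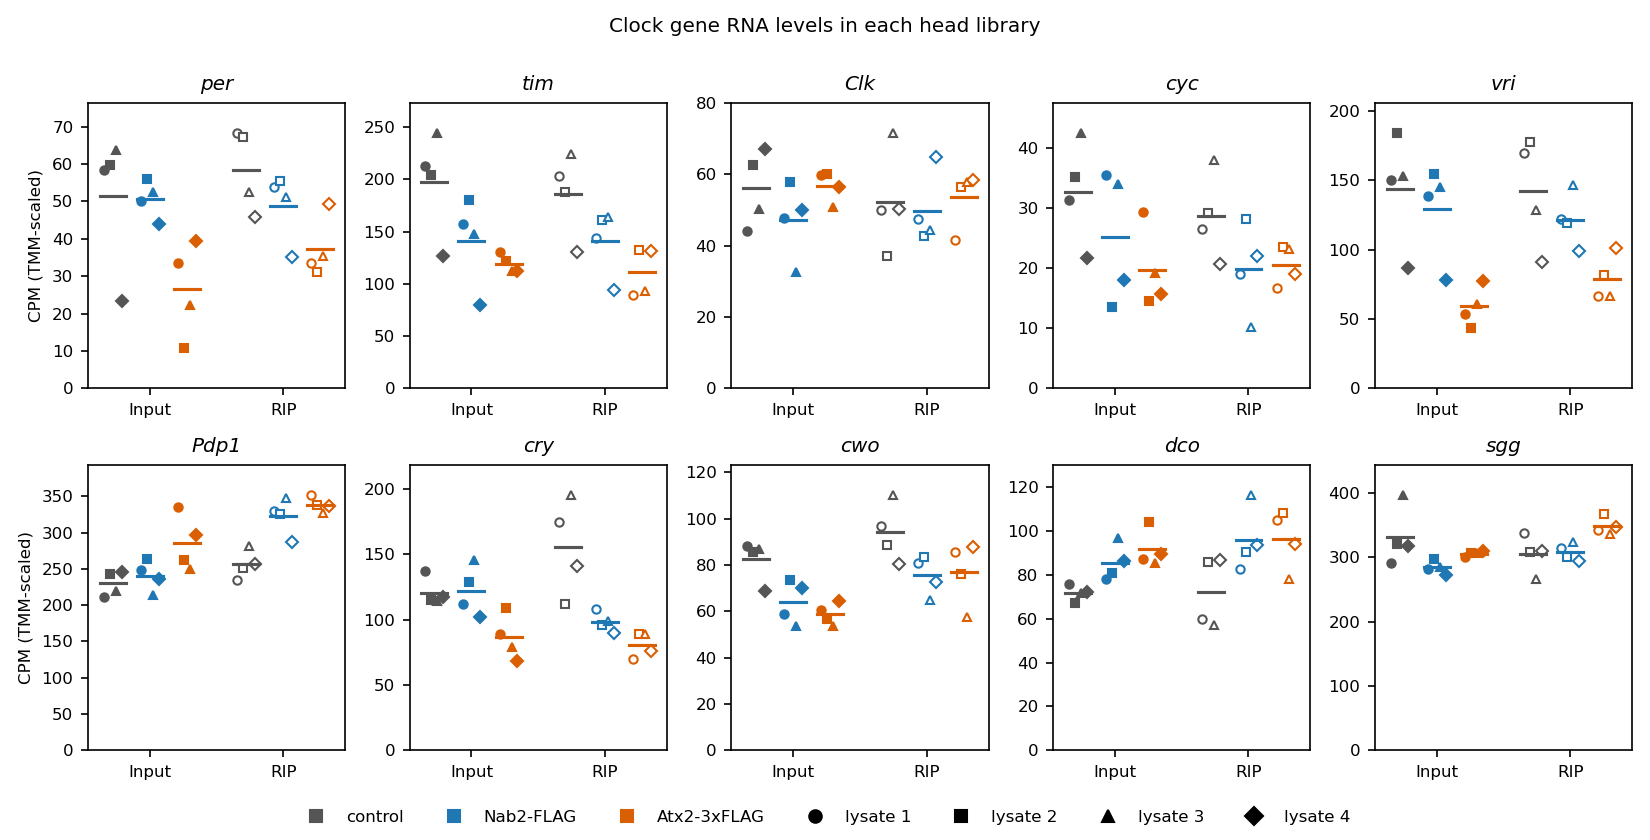
Level of each clock gene in every library, in CPM after TMM scaling (y axis, from 0, own scale per gene), for Input (filled) and RIP (open) in control (grey), Nab2-FLAG (blue) and Atx2-3xFLAG (orange) heads. The marker shape gives the lysate number and the bar is the mean of 4 lysates; vri in Input lies between 43.7 and 77.7 CPM in Atx2-3xFLAG and between 87.1 and 184 CPM in control.

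The first comparison asked whether clock gene RNA in whole-head lysate differed between heads that made Atx2-3xFLAG and control heads. In Input, 5 of the 10 clock genes fell in Atx2-3xFLAG and 0 rose: vri, per, tim, cry and cwo, by log2 differences from -1.27 to -0.48. Across all genes tested, 16.5% were called in this comparison in either direction and 7.58% were called lower (edgeR quasi-likelihood F test, Benjamini-Hochberg adjusted p under 0.05). The median log2 difference was -0.49 over the clock genes and -0.01 over all genes. Every Atx2-3xFLAG Input library lay below every control Input library for vri, cry and cwo, and above every one for Pdp1 and dco. Such separation of the groups, in either direction, was seen in 17.1% of all genes. The count of 5 depended on single lysates: 1 clock gene was lower without control lysate 1, and 3 were without control lysate 2, control lysate 3 or Atx2-3xFLAG lysate 4. Without Atx2-3xFLAG lysate 3, vri alone was lower and Pdp1 was higher, and scaled by library size alone 2 were lower (vri, tim) and 2 higher (Pdp1, dco). Of the 5 clock genes whose mRNA is known to peak in the evening or early night (per, tim, vri, Pdp1, cwo), 4 fell and Pdp1 did not. Of Clk and cry, whose mRNA is known to peak late at night or in the morning, cry fell. None of cyc, dco and sgg, known for little or no mRNA rhythm, was called.

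Nab2-FLAG heads were compared with the same control heads, so the 2 comparisons share their control libraries. In Nab2-FLAG Input, 0 of 10 clock genes were called, against 12.1% of all genes, while 2 had an unadjusted p under 0.05 and DESeq2 called 0. The groups did not overlap for dco alone, which was higher, against 15.0% of all genes. In the direct comparison of Atx2-3xFLAG with Nab2-FLAG Input, vri, per and cry were lower in Atx2-3xFLAG and 0 were higher. That is 3 of 10, against 4.28% of all genes called in either direction and 2.60% called lower. The groups did not overlap for per and vri, which were lower, and sgg, which was higher, against 9.71% of all genes. Only vri was called by DESeq2, in which per (-0.90) and cry (-0.52) had an adjusted p of 0.0693 and 0.0905. Without Nab2-FLAG lysate 2 or 3, or Atx2-3xFLAG lysate 1 or 3, 1 clock gene was called, and it was vri. Without the control and Nab2-FLAG lysates numbered 3 together, 0 were called, with vri at -1.10 (adjusted p = 0.0870).

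Markers of other head cell types also moved between these Input groups, and their part in the clock gene differences was not tested. The 15 photoreceptor markers summed to between 84530 and 117300 CPM for control, 58960 to 71750 for Nab2-FLAG and 58080 to 69700 for Atx2-3xFLAG. Relative to control, 9 of them fell and 2 rose in Atx2-3xFLAG, and 7 fell and 2 rose in Nab2-FLAG. Of all genes, 7.58% were called lower and 8.95% higher in Atx2-3xFLAG Input, and 4.75% lower and 7.35% higher in Nab2-FLAG Input. Fat body markers summed to between 108600 and 145600 CPM for control, 101000 to 123500 for Nab2-FLAG and 71850 to 79570 for Atx2-3xFLAG. Of 8 fat body markers tested, 3 fell and 1 rose in Atx2-3xFLAG against control, 0 fell and 3 rose in Nab2-FLAG against control, and 6 were lower in Atx2-3xFLAG than in Nab2-FLAG. Cyp4g1, which marks fat body and oenocytes, had too few counts over the 6 groups to be among the 8 tested. It had 0 counts in every Atx2-3xFLAG Input library, but at this low level that does not set the genotype apart. Thus the photoreceptor sums of the tagged genotypes overlapped, whereas the fat body sums of Atx2-3xFLAG lay below those of both other genotypes. The 10 muscle markers summed to between 3547 and 4797 CPM for control, 6582 to 8495 for Nab2-FLAG and 6474 to 7211 for Atx2-3xFLAG, and 10 and 9 of them rose in these genotypes. Neuronal markers summed to between 2742 and 3542 CPM for control, 2808 to 3139 for Nab2-FLAG and 3335 to 3855 for Atx2-3xFLAG. Of 14 neuronal markers, 7 rose and 1 fell in Atx2-3xFLAG, and 2 rose and 1 fell in Nab2-FLAG. Glial markers summed to between 1409 and 1762 CPM for control, 2051 to 2078 for Nab2-FLAG and 1635 to 1803 for Atx2-3xFLAG. Of 10 glial markers, 3 rose and 0 fell in Nab2-FLAG, and 0 rose and 1 fell in Atx2-3xFLAG. In these bulk lysates, fewer cells of a type and less RNA per cell cannot be told apart.

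**Figure D2:**
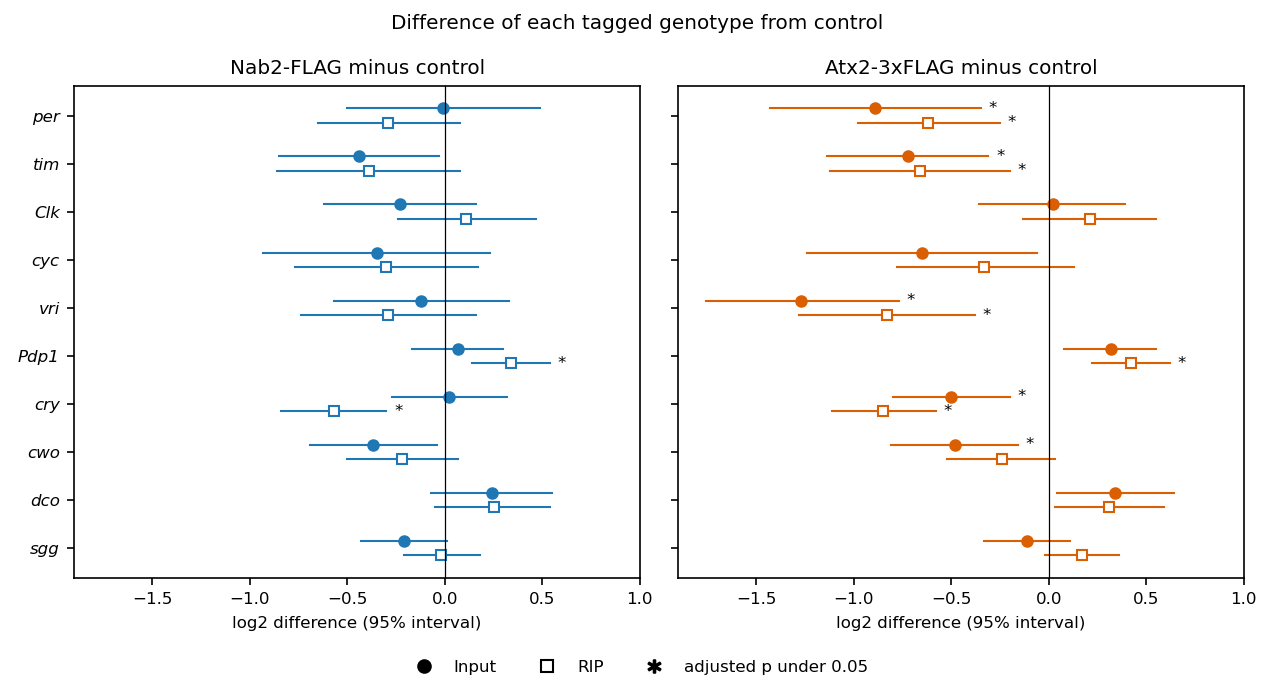
Log2 difference of Nab2-FLAG (left) and Atx2-3xFLAG (right) from control for each clock gene in Input (circles) and RIP (squares), with 95% intervals on the x axis; a star marks an adjusted p under 0.05. Input and RIP libraries come from the same lysates. Of the genes below 0 in both for Atx2-3xFLAG, vri, per, tim and cry are called in both, cwo in Input only and cyc in neither. Of the genes above 0 in both, Pdp1 is called in RIP, and dco and Clk are not called.

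The period gene per (chromosome X, 2685580 to 2692780 in genome Release 6) encodes the repressor at the centre of the loop. Its Input level was 58.5, 59.7, 63.8 and 23.4 CPM in control lysates 1 to 4, and 50, 55.9, 52.5 and 44.0 CPM in the Nab2-FLAG lysates. In Atx2-3xFLAG Input it was 33.4, 10.9, 22.4 and 39.5 CPM. Control lysate 4 was low and fell among the Atx2-3xFLAG values, so these groups overlapped, whereas every Atx2-3xFLAG library lay below every Nab2-FLAG library. These are small counts, 6 to 34 reads in Atx2-3xFLAG Input and 14 to 41 in control Input. The log2 difference of Atx2-3xFLAG from control was -0.89 (SE 0.27, edgeR adjusted p = 0.0171), and from Nab2-FLAG it was -0.89 (SE 0.26, adjusted p = 0.0399). For Nab2-FLAG against control it was -0.01, with a 95% interval from -0.50 to 0.49. The adjusted p of per against control rose to 0.0752, 0.0692 and 0.0614 without control lysates 1, 2 and 3 and to 0.0698 without Atx2-3xFLAG lysate 3, at log2 differences from -0.82 to -0.79. Against Nab2-FLAG it rose to between 0.0521 and 0.158 without any of control lysates 1 and 2, Nab2-FLAG lysates 1, 2 and 3, or Atx2-3xFLAG lysates 1, 2 and 3, at log2 differences from -1.01 to -0.70.

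In RIP libraries per was at 68.2, 67.2, 52.4 and 45.7 CPM for control, 53.8, 55.4, 51.1 and 35.1 for Nab2-FLAG and 33.4, 31.1, 35.3 and 49.3 for Atx2-3xFLAG. Atx2-3xFLAG lysates 1, 2 and 3 lay below every control library, while lysate 4 lay within the control range. The log2 difference from control was -0.62 (SE 0.18, adjusted p = 0.00958), and it was -0.29 for Nab2-FLAG (adjusted p = 0.285). Without control lysate 1 or 2, the adjusted p for Atx2-3xFLAG was 0.0526 or 0.0633, both at a log2 difference of -0.54.

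The timeless gene tim (chromosome arm 2L, 3493986 to 3508119) encodes the partner that stabilises PER and is degraded in light. Its Input level was 213, 204, 244 and 127 CPM for control, 157, 180, 148 and 80.0 for Nab2-FLAG and 130, 122, 112 and 112 for Atx2-3xFLAG. Lysate 4 was the lowest of its group in control and in Nab2-FLAG, and the control and Atx2-3xFLAG groups overlapped only through control lysate 4. The log2 difference of Atx2-3xFLAG from control was -0.72 (SE 0.20, adjusted p = 0.0148). For Nab2-FLAG it was -0.44 (SE 0.19, unadjusted p = 0.0356, adjusted p = 0.175), which became -0.59 (adjusted p = 0.00397) without control lysate 4. The Atx2-3xFLAG call had an adjusted p of 0.0594 without control lysate 1, 0.0531 without Atx2-3xFLAG lysate 3 and 0.0670 without Atx2-3xFLAG lysate 4, at log2 differences from -0.70 to -0.68. The difference between the tagged genotypes was -0.28 (95% interval -0.70 to 0.13, adjusted p = 0.541).

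In RIP libraries tim was at 203, 188, 224 and 130 CPM for control, 144, 161, 164 and 94.1 for Nab2-FLAG and 89.3, 132, 92.7 and 131 for Atx2-3xFLAG. Atx2-3xFLAG differed from control by a log2 of -0.66 (SE 0.21, adjusted p = 0.0386), again with overlap through control lysate 4. That adjusted p lay between 0.0502 and 0.112 without any of control lysates 1, 2 and 3, Nab2-FLAG lysate 1, or Atx2-3xFLAG lysates 1 and 3, at log2 differences from -0.69 to -0.58. Nab2-FLAG differed by -0.39 (adjusted p = 0.246), and by -0.56 (adjusted p = 0.0371) without control lysate 4.

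Of the second-loop genes, vrille (vri, arm 2L, 5288944 to 5311223) encodes the bZIP repressor of Clk. Its Input level was 150, 184, 153 and 87.1 CPM for control, 139, 155, 145 and 78.0 for Nab2-FLAG and 54.0, 43.7, 61.1 and 77.7 for Atx2-3xFLAG. All 4 Atx2-3xFLAG libraries lay below all libraries of the other genotypes, narrowly so against Nab2-FLAG lysate 4. The log2 difference from control was -1.27 (SE 0.23, adjusted p = 0.000787), the largest in size of any clock gene in any of the 10 comparisons, and from Nab2-FLAG it was -1.15 (SE 0.23, adjusted p = 0.00582). Leaving out any 1 lysate kept the difference from control between -1.44 and -1.12, with an adjusted p of at most 0.00751. Nab2-FLAG and control differed by -0.12 (95% interval -0.57 to 0.33).

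In RIP libraries vri was at 170, 178, 129 and 91.4 CPM for control, 122, 119, 147 and 98.9 for Nab2-FLAG and 66.7, 81.5, 66.5 and 101 for Atx2-3xFLAG. Lysate 4 of Atx2-3xFLAG lay above control lysate 4, so the groups overlapped. The log2 difference from control was -0.83 (SE 0.21, adjusted p = 0.0101). For Nab2-FLAG it was -0.29 (adjusted p = 0.390), and without control lysate 4 it was -0.52 (adjusted p = 0.00696). Between the tagged genotypes it was -0.54 (adjusted p = 0.207), and without control lysate 4, which enters that comparison through the shared spread, it was -0.54 with an adjusted p of 0.00722.

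PAR-domain protein 1 (Pdp1, arm 3L, 7811458 to 7867369) encodes the bZIP activator of Clk and has several isoforms that gene counts do not separate. In Input it was at 211, 243, 220 and 246 CPM for control, 249, 264, 214 and 236 for Nab2-FLAG and 335, 262, 250 and 296 for Atx2-3xFLAG. All Atx2-3xFLAG libraries were above all control libraries, at a log2 difference of 0.32 (SE 0.12, adjusted p = 0.0507). That p fell to 0.0357 without control lysate 4 and to 0.0346 without Atx2-3xFLAG lysate 3, at 0.35 and 0.37. In RIP Pdp1 was at 235, 251, 281 and 257 CPM for control, 329, 326, 348 and 287 for Nab2-FLAG and 351, 338, 327 and 336 for Atx2-3xFLAG. Both tagged genotypes lay above control with no overlap in RIP. The log2 differences were 0.34 (SE 0.10, adjusted p = 0.0119) for Nab2-FLAG and 0.42 (SE 0.10, adjusted p = 0.00113) for Atx2-3xFLAG. The Nab2-FLAG value was 0.30 (adjusted p = 0.0569) without control lysate 1 and 0.31 (adjusted p = 0.0607) without Nab2-FLAG lysate 1.

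Because tim fell and Pdp1 rose in Atx2-3xFLAG RIP, their counts were also divided within each library, which removes any scaling between libraries. In Input, control lysates 1 to 4 had 1.01, 0.836, 1.11 and 0.517 tim counts per Pdp1 count. In Nab2-FLAG the ratio was 0.629, 0.682, 0.689 and 0.339, and in Atx2-3xFLAG it was 0.387, 0.465, 0.447 and 0.378. All Atx2-3xFLAG Input libraries were thus below all control Input libraries, and lysate 4 was the lowest in each genotype. In RIP the ratio was 0.730 ± 0.155 for control, 0.433 ± 0.0736 for Nab2-FLAG and 0.330 ± 0.0710 for Atx2-3xFLAG (SD, n = 4 each). In RIP every tagged library lay below every control library, the lowest control library being lysate 4 at 0.508. These ratios were formed after the levels had been seen and are given as a description. Pdp1 alone already separated the same groups, so the separation of the ratios is not further evidence.

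**Figure D3:**
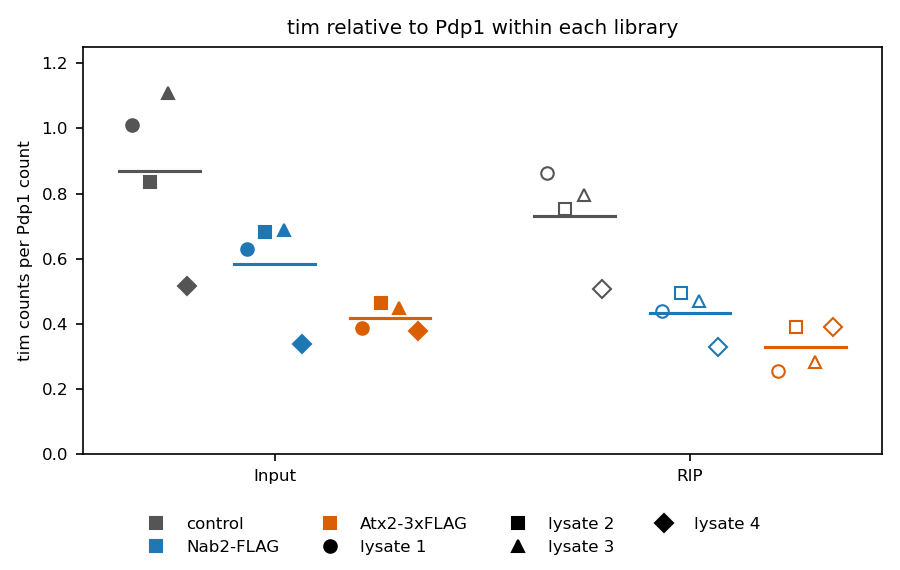
Counts of tim per count of Pdp1 in each library (y axis, from 0), for Input (filled) and RIP (open); colours give the genotype, marker shapes the lysate number and bars the mean of 4 lysates. Atx2-3xFLAG Input lies between 0.378 and 0.465 and control Input between 0.517 and 1.11. This pair of genes was chosen after its levels had been seen, and Pdp1 alone also separates these groups.

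The genes of the activators did not pass the test in any comparison. Clock (Clk, arm 3L, 7763233 to 7775603) was at 56.1 ± 10.6 CPM for control Input, 47.1 ± 10.6 for Nab2-FLAG Input and 56.9 ± 4.30 for Atx2-3xFLAG Input (SD, n = 4 each). Its RIP levels were 52.2 ± 14.2, 49.9 ± 10.2 and 53.7 ± 8.02 CPM in the same order. In all 6 groups the Clk values overlapped, and the log2 difference of Atx2-3xFLAG from control in Input was 0.02, with a 95% interval from -0.36 to 0.39. Cycle (cyc, arm 3L, 19813770 to 19815938), the partner of CLK, was at 32.7 ± 8.65 CPM for control Input, 25.3 ± 11.2 for Nab2-FLAG and 19.8 ± 6.74 for Atx2-3xFLAG. With 8 to 32 reads per Input library, cyc had the widest intervals of the clock genes. Its log2 difference of Atx2-3xFLAG from control was -0.65 (SE 0.29, 95% interval -1.24 to -0.06, adjusted p = 0.130), and -0.94 (adjusted p = 0.0442) without Atx2-3xFLAG lysate 1. In RIP cyc was at 28.7 ± 7.20, 19.9 ± 7.47 and 20.6 ± 3.31 CPM, and neither tagged genotype differed from control beyond the spread (adjusted p = 0.412 for Nab2-FLAG and 0.319 for Atx2-3xFLAG).

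Cryptochrome (cry, arm 3R, 19212154 to 19215442) encodes the blue-light receptor of the clock. In Input it was at 137, 115, 114 and 117 CPM for control, 112, 129, 146 and 102 for Nab2-FLAG and 89.3, 109, 79.4 and 68.5 for Atx2-3xFLAG. Every Atx2-3xFLAG library was below every control library, at a log2 difference of -0.50 (SE 0.15, adjusted p = 0.0149). The adjusted p was 0.0846 without control lysate 1, 0.0545 without Atx2-3xFLAG lysate 3 and 0.0713 without Atx2-3xFLAG lysate 4, at log2 differences from -0.47 to -0.41. Against Nab2-FLAG the difference was -0.53 (SE 0.15, adjusted p = 0.0258), with an adjusted p between 0.0584 and 0.152 without any of Nab2-FLAG lysates 2 and 3 or Atx2-3xFLAG lysates 1, 3 and 4, at -0.54 to -0.44. Scaled by library size alone, cry in Input differed from control by -0.25 (adjusted p = 0.309).

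In RIP libraries cry was at 175, 112, 195 and 141 CPM for control, 108, 96.2, 98.8 and 89.9 for Nab2-FLAG and 70.3, 89.1, 88.7 and 75.7 for Atx2-3xFLAG. The 3 genotypes did not overlap, with control highest and Atx2-3xFLAG lowest. The log2 difference from control was -0.57 (SE 0.13, adjusted p = 0.00158) for Nab2-FLAG and -0.85 (SE 0.13, adjusted p = 3.19e-06) for Atx2-3xFLAG. For Atx2-3xFLAG it stayed between -1.01 and -0.74 when any 1 lysate was left out. The tagged genotypes differed by -0.27, which did not pass the test (adjusted p = 0.304).

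Clockwork orange (cwo, arm 3R, 10388258 to 10400752) encodes a bHLH-Orange repressor of CLK-CYC targets. Its Input level was 88.4, 85.7, 87.0 and 68.7 CPM for control, 58.9, 73.5, 53.9 and 70.0 for Nab2-FLAG and 60.8, 56.5, 53.9 and 64.5 for Atx2-3xFLAG. The Atx2-3xFLAG libraries were all below the control libraries, at a log2 difference of -0.48 (SE 0.16, adjusted p = 0.0295). Of the 5 calls against control in Input, that of cwo was lost under the most alternatives. The adjusted p was 0.100, 0.0676 and 0.0608 without control lysates 1, 2 and 3 and 0.0555 and 0.0905 without Atx2-3xFLAG lysates 2 and 3, at log2 differences from -0.48 to -0.44, and DESeq2 gave 0.105. Nab2-FLAG Input differed from control by -0.37 (SE 0.16, unadjusted p = 0.0273, adjusted p = 0.145). In RIP cwo was at 94.0 ± 12.4 CPM for control, 75.5 ± 8.52 for Nab2-FLAG and 76.8 ± 13.9 for Atx2-3xFLAG; the adjusted p values against control were 0.311 and 0.213.

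The kinase genes passed the test in none of the comparisons. Doubletime (dco, arm 3R, 31054085 to 31061210), the casein kinase that marks PER for degradation, was at 75.6, 67.3, 71.5 and 72.0 CPM in control Input. It was at 77.8, 80.7, 96.5 and 86.0 CPM in Nab2-FLAG Input and at 87.3, 104, 85.5 and 89.6 in Atx2-3xFLAG Input. All libraries of both tagged genotypes were above all control libraries, at log2 differences of 0.24 (SE 0.15, adjusted p = 0.367) and 0.34 (SE 0.15, adjusted p = 0.124). In RIP dco was at 72.3 ± 16.1, 95.6 ± 14.3 and 96.3 ± 13.6 CPM in control, Nab2-FLAG and Atx2-3xFLAG. Shaggy (sgg, chromosome X, 2633952 to 2679553), the GSK-3 kinase that acts on TIM, was at 331 ± 45.5, 284 ± 10.8 and 306 ± 3.43 CPM in Input and 305 ± 28.8, 308 ± 13.6 and 348 ± 14.0 CPM in RIP, in the same order. Its log2 difference of Atx2-3xFLAG from control was -0.11 (95% interval -0.33 to 0.11) in Input and 0.17 (95% interval -0.02 to 0.36) in RIP.

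Counted over the RIP libraries, 4 of 10 clock genes were lower (cry, per, vri, tim) and Pdp1 was higher in Atx2-3xFLAG than in control. Of all genes, 23.8% were called in this comparison, 10.3% lower and 13.5% higher, and the members' median log2 difference was -0.29 against 0.01. Without control lysate 1 or 2, 3 clock genes were called. Scaled by library size alone, per (-0.46, adjusted p = 0.0645) and tim (-0.49, adjusted p = 0.108) were not called, and dco (0.49, adjusted p = 0.0117) and sgg (0.36, adjusted p = 0.00953) were higher, which made 3 higher and 2 lower. The groups did not overlap for Pdp1 and cry, against 22.9% of all genes. In Nab2-FLAG RIP, 2 of 10 were called, Pdp1 higher and cry lower, against 19.7% of all genes called, 11.1% higher and 8.62% lower. That is close to the share over all genes. The count was 1 (cry) without control lysate 1 or Nab2-FLAG lysate 1 and 4 without control lysate 4. The same 2 genes were the only clock genes whose groups did not overlap, against 18.6% of all genes. Between Atx2-3xFLAG and Nab2-FLAG RIP, edgeR and DESeq2 each called 0 of 10 clock genes, against 4.26% of all genes by edgeR. Here 2 clock genes (vri, cry) had an unadjusted p under 0.05, and cry (lower) and sgg (higher) did not overlap, against 11.1% of all genes. Photoreceptor markers summed to 66800 to 82090 CPM for control RIP, 43910 to 46120 for Nab2-FLAG RIP and 45610 to 48740 for Atx2-3xFLAG RIP, and fat body markers to 87580 to 121800, 90640 to 94820 and 55670 to 74740 CPM. Muscle markers summed to 4206 to 5220 CPM for control RIP, 7386 to 9463 for Nab2-FLAG RIP and 6632 to 7878 for Atx2-3xFLAG RIP, and neuronal markers to 3155 to 3769, 3756 to 3928 and 4053 to 5061 CPM. Glial markers summed to 1343 to 1753 CPM in control RIP, 1918 to 2052 in Nab2-FLAG RIP and 1532 to 1724 in Atx2-3xFLAG RIP. Of 10 glial markers, 4 were higher and 1 lower than control in Nab2-FLAG, and 3 were higher and 2 lower in Atx2-3xFLAG. The part of these shifts in the clock gene differences was not tested.

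The series was designed to find RNAs that come down with each tagged protein, so recovery was also measured within lysates. It was taken as the log2 RIP-to-Input ratio of a lysate, and association as the ratio in a tagged genotype less the ratio in control. No clock gene was called as associated with Atx2-3xFLAG by edgeR or DESeq2. Over all genes, edgeR called 0.0488%, or 3 of 6147. For per mRNA, the ratio was 0.00, 1.36, 0.61 and 0.31 in Atx2-3xFLAG lysates 1 to 4, and 0.21, 0.17, -0.27 and 0.91 in control lysates. In Nab2-FLAG lysates the per ratio was 0.10, -0.01, -0.04 and -0.31. The highest Atx2-3xFLAG value came from lysate 2, whose Input library held 6 per reads. The Atx2-3xFLAG and control ratios overlapped, and the association of per was 0.20 (SE 0.28, 95% interval -0.35 to 0.75, adjusted p = 0.978). An association of up to 0.75 on the log2 scale thus lay inside the interval at this depth.

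For vri, the RIP-to-Input ratio was 0.41 ± 0.32 in Atx2-3xFLAG, -0.01 ± 0.18 in control and -0.05 ± 0.31 in Nab2-FLAG (log2, SD, n = 4 each). The association with Atx2-3xFLAG was 0.37 (SE 0.19, unadjusted p = 0.0547, adjusted p = 0.881). For sgg the ratios were 0.19 ± 0.06 in Atx2-3xFLAG and -0.11 ± 0.33 in control, at an association of 0.25 (SE 0.12), the only clock gene with an unadjusted p under 0.05 for Atx2-3xFLAG (0.0480, adjusted p = 0.881). For cry the Atx2-3xFLAG association was -0.36 (SE 0.18, unadjusted p = 0.0511). The remaining members lay between -0.04 (tim) and 0.26 (cyc). For none of the 10 did the Atx2-3xFLAG and control ratios separate, against 3.45% of all genes.

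**Figure D4:**
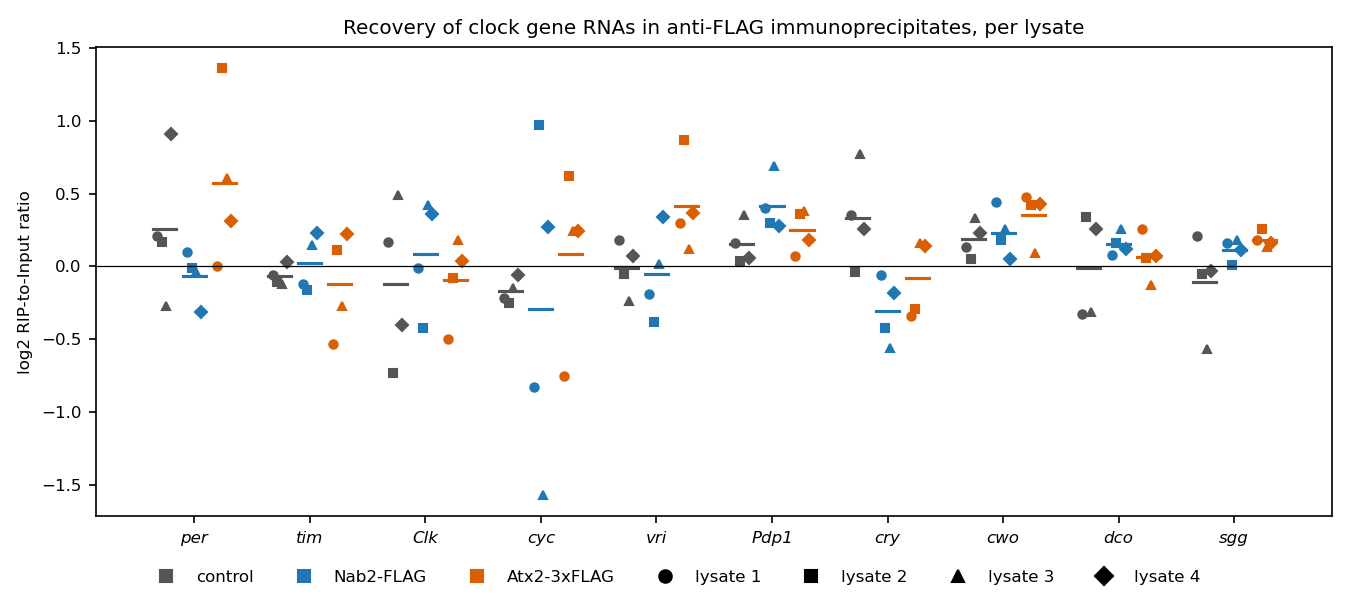
Log2 RIP-to-Input ratio of each clock gene in each lysate (y axis) for control (grey), Nab2-FLAG (blue) and Atx2-3xFLAG (orange); marker shapes give the lysate number and bars the mean of 4 lysates. Nab2-FLAG ratios of cry, from -0.56 to -0.06, lie below those of control, from -0.04 to 0.77, while per in Atx2-3xFLAG runs from 0.00 to 1.36.

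With Nab2-FLAG, too, 0 of 10 clock genes were called by edgeR or DESeq2, against 0.0976% of all genes by edgeR. Recovery of cry was 0.35, -0.04, 0.77 and 0.26 in control lysates and -0.06, -0.42, -0.56 and -0.18 in Nab2-FLAG lysates, on the log2 scale. These 2 groups of ratios did not overlap, as was true of 4.18% of all genes. The association of cry was -0.57 (SE 0.18, unadjusted p = 0.00245, adjusted p = 0.294). In the authors' deposited table of percent input, the ratio of Nab2-FLAG to control for cry was 0.634 with a Dunnett p of 0.0256, and that of Atx2-3xFLAG to control was 0.737 with a Dunnett p of 0.0998. Dunnett's p adjusts for the comparisons with control within a gene and not over all genes, unlike the adjusted p of edgeR. Pdp1 had an association with Nab2-FLAG of 0.27 (SE 0.13, unadjusted p = 0.0397, adjusted p = 0.685), and 1.21 in the authors' deposited table (Dunnett p 0.0768). For per the authors' deposited table gave 0.760 for Nab2-FLAG and 1.31 for Atx2-3xFLAG (Dunnett p 0.663 and 0.523), and for vri 0.984 and 1.36 (0.994 and 0.114).

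The associations with the 2 proteins were also set against each other, and 0 of 10 clock genes differed by edgeR or DESeq2, as was the case for 0% of all genes by edgeR. The only unadjusted p under 0.05 was that of vri, at 0.00963, with a difference of 0.49 (SE 0.19, adjusted p = 1). For per the difference was 0.51 (95% interval -0.02 to 1.05). In control lysates, which had no FLAG-tagged protein, RIP and Input levels differed for 0 of 10 clock genes by edgeR or DESeq2, against 7.42% of all genes by edgeR. The only unadjusted p under 0.05 there was that of cry, higher in RIP by 0.30 (SE 0.13, unadjusted p = 0.0244, adjusted p = 0.165).

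Beyond the core, 44 further genes known to act in or downstream of the fly clock were listed, and 40 of them could be tested (Bdbt, Hr51, Fer2 and NPF had too few counts). In Atx2-3xFLAG Input, 1 rose and 1 fell relative to control, which is 2 of 40 where 16.5% of all genes were called. The gene that rose was qsm, which encodes a light-responsive membrane-linked protein of clock neurons, from 9.43 ± 1.89 to 28.1 ± 8.38 CPM (log2 difference 1.60, adjusted p = 0.00024). The gene that fell was Slob, a clock-controlled regulator of the Slowpoke potassium channel, from 485 ± 103 to 335 ± 14.7 CPM (-0.54, adjusted p = 0.000882). In Nab2-FLAG Input, 3 rose and 0 fell: qsm (1.29, adjusted p = 0.00768), Usp8 (0.63, adjusted p = 0.00777) and kay (0.46, adjusted p = 0.0210), against 12.1% of all genes called in either direction. USP8 removes ubiquitin from CLK, and kay encodes a Fos-family factor. Usp8 was lower in Atx2-3xFLAG than in Nab2-FLAG Input, at 50.9 ± 9.25 against 106 ± 13.1 CPM (-1.08, adjusted p = 1.47e-05), the only gene of the list called there, against 4.28% of all genes.

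In RIP, 8 of the 40 rose and 2 fell in Atx2-3xFLAG against control, a share close to the 23.8% of all genes called (13.5% higher and 10.3% lower), so the count does not set the list apart. Those that rose included wdb (0.47, adjusted p = 0.000425) and tws (0.46, adjusted p = 0.00776), regulatory subunits of the phosphatase PP2A, and CkIIbeta (0.52, adjusted p = 0.00242) and nmo (0.44, adjusted p = 0.0164) of clock kinases. They also included qsm (0.90) and the RNA helicase gene me31B (0.75). Slob (-0.56, adjusted p = 3.67e-05) and lark (-0.61, adjusted p = 0.0141), which encodes an RNA-binding protein, fell. In Nab2-FLAG RIP, where 19.7% of all genes were called, 5 of the 40 rose (me31B, CkIIbeta, Usp8, qsm and the ubiquitin ligase scaffold gene Cul3) and Eip75B, which encodes a nuclear receptor, fell by 0.47 on the log2 scale (adjusted p = 0.000932). Between the tagged genotypes in RIP, Atx2 itself (0.40, adjusted p = 0.0121) and the channel subunit gene unc79 (0.36, adjusted p = 0.0435) were higher in Atx2-3xFLAG, against 4.26% of all genes called. In control lysates kay, Eip75B, nej and unc80 were higher in RIP than in Input, and Cul3 and me31B were lower, against 7.42% of all genes called. Of the 40 genes, edgeR and DESeq2 called 0 as associated with either protein, with an unadjusted edgeR p under 0.05 for 4 (Nab2-FLAG) and 3 (Atx2-3xFLAG). In RIP, DESeq2 called 4 of the 40 higher and 2 lower in Atx2-3xFLAG, and 1 higher and 1 lower in Nab2-FLAG.

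The variation of the clock genes among the 12 Input libraries was described by correlation of log2 CPM across libraries, without a test, since these libraries share 3 genotypes and lysate numbers. The genes most like per were Ykt6 (r = 0.928), CG15514 (0.895), AnxB9 (0.884), CG8931 (0.871) and AlaRS (0.867), and vri came eighth of all genes tested in likeness to per (r = 0.864). For tim they were ifc (r = 0.976), Sik2 (0.956), RpL18 (0.954), RpS19a (0.951) and Mo25 (0.945). Clock genes were less like tim: vri (0.748), cwo (0.636), cyc (0.609), per (0.561), cry (0.549), sgg (0.542), Clk (-0.109), Pdp1 (-0.386) and dco (-0.586). By Spearman rank correlation with tim, per was at 0.825 and vri at 0.783. The r of per is sensitive to Atx2-3xFLAG Input 2, which held 6 per reads. For Clk they were CG9368 (r = 0.913), mGluR (0.853), Fife (0.827), CG5745 (0.822) and InR (0.813). Among the other clock genes, r with Clk was 0.589 for Pdp1, 0.279 for sgg and 0.207 for cwo. It was -0.401 for per, -0.398 for cry, -0.397 for cyc, -0.348 for vri, -0.282 for dco and -0.109 for tim.

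Overlapping genes limit what a gene count can hold, since the sources used here do not say whether strand was used in counting. In RefSeq's Release 6 annotation, per shares 49 bases with dyw (daywake, listed as CG2650 in the count tables), and dyw was looked at for that reason. Its Input level was 0, 4.59, 3.87 and 21.8 CPM for control, 30.0, 36.2, 36.9 and 54.0 for Nab2-FLAG and 115, 160, 142 and 83.0 for Atx2-3xFLAG. The 3 genotypes did not overlap for dyw, with control lowest and Atx2-3xFLAG highest, and control lysate 4, which had the lowest per level of its group, had its highest dyw level. Control Input 4 was also the lowest of its group for tim (127 CPM), vri (87.1), cwo (68.7) and cyc (21.8). It was the highest for Clk (67.0) and Pdp1 (246), and none of these genes overlaps dyw. For CG2650 the log2 difference from control was 2.34 (SE 0.60, adjusted p = 0.0242) in Nab2-FLAG and 4.05 (SE 0.48, adjusted p = 8.57e-05) in Atx2-3xFLAG Input, and between the tagged genotypes it was 1.71 (adjusted p = 0.0119). In RIP, CG2650 was at 6.65 ± 6.99, 39.4 ± 15.6 and 90.8 ± 18.9 CPM, and its association with Atx2-3xFLAG was -0.18 (adjusted p = 1). Of the other overlaps, cry shares 9 bases with vib, whose Input level did not pass the test in Atx2-3xFLAG (0.18, adjusted p = 0.689). CG32371, inside Clk, had at most 3 counts in any library, and the listed noncoding genes in vri and sgg had at most 1. Larger overlaps lie in tim, with lncRNA:CR46495 (667 bases) and snoRNA:Or-CD16 (151 bases), and in cry, with lncRNA:CR46393 (574 bases). These noncoding genes were not found in the count tables, so their reads could not be looked at.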

How the data were processed

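Libraries were rRNA-depleted and stranded, and RIP and Input libraries were pooled for sequencing apart, per the labels' protocols. The submitters' processing notes name STAR 2.6.0b-1, featureCounts 1.6.3, DESeq2 2.11.40.2 and the build BDGP6. The deposited tables hold the authors' raw read counts per gene, 1 table per library, with no unassigned rows. The authors' deposited table of percent input gives, per the file headers, a ratio of each tagged genotype to control and p-values from analysis of variance and Dunnett's comparison; the other 48 per-sample columns of the authors' normalized tables were not used. Symbols were matched to RefSeq (GCF_000001215.4, Release 6 plus ISO1 MT) for coordinates only.

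Counts were scaled by TMM over 24 libraries and filtered with filterByExpr on the 6 groups, which left genes holding 98.9% of counts. They were tested with edgeR 4.0.16 (R 4.3.3, robust quasi-likelihood F test, two-sided, Benjamini-Hochberg over 6147 genes, threshold 0.05). Genotypes were compared within the 12 libraries of a pool without a block, with the spread shared by the 3 genotypes. Associations used all 24 libraries with 1 coefficient per lysate, since RIP and Input of a number come from the same lysate per the series design. Across 2313 genes with a mean count of at least 50, their deviations from the group means correlated above 0.1 in 10 of 12 lysates (median r = 0.182). Ratios and correlations used log2 CPM with a prior count of 2. DESeq2 1.42.0 and other scalings, filters, blocks and left-out lysates were alternatives. Intervals are 95%, from the fitted SE. Depth ran from 220894 to 2109561 counts per library, which for per meant 6 to 135 reads. Counting noise did not account for the spread of replicates (chi-square over its degrees of freedom 1.43 to 8.2), and the labels call them biological replicates. The procedure was tested on simulated data. Gene levels are not per length and are not compared between genes.

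The 10 members and all gene lists were chosen with earlier results of these data known. All members are named. Other clock genes are named if they passed the test (at most 8 per comparison by p), with the 5 genes most correlated with per, tim and Clk. Genes that overlap a member were named after the values of those in the count tables had been seen. Markers of 5 head cell types are given as counts and sums. No sequences are shown.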

Additional observations from a re-analysis of the deposited data

Results flagged for a closer look

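In 5 of 96 groups of 4 values, the highest or lowest stood farther from its neighbour than Dixon's 95% limit allows, where chance alone gives about 4.8. The level of per in control Input 4 was 23.4 CPM against 58.5 to 63.8 in the other control Input libraries. The level of cwo in that library was 68.7 CPM against 85.7 to 88.4. The level of cry in control Input 1 was 137 CPM against 114 to 117, and that of Clk in Atx2-3xFLAG RIP 1 was 41.7 CPM against 56.6 to 58.4. In Atx2-3xFLAG lysate 3, cwo had a log2 RIP-to-Input ratio of 0.09 against 0.42 to 0.48. The direct comparison of Atx2-3xFLAG with Nab2-FLAG Input called 3 clock genes: per at -0.89, vri at -1.15 and cry at -0.53 (log2, edgeR adjusted p 0.0399, 0.00582 and 0.0258). Of 20 alternatives, 11 lost the call of per, 8 that of cry and 1 that of vri. DESeq2 called vri alone, with per and cry at an adjusted p of 0.0693 and 0.0905.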

How the results depend on the processing

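Scaling by library size alone shifted the median log2 difference of all genes, and with it the clock genes. The shift of the median was to 0.39 for control RIP against Input, where 8 clock genes were called higher in place of 0 and tim (0.35) and sgg (0.33) turned from lower to higher. In the genotype comparisons it was to 0.16 (Nab2-FLAG) and 0.24 (Atx2-3xFLAG) in Input and to 0.13 and 0.18 in RIP. No clock gene turned direction there past the threshold, but in Atx2-3xFLAG Input per (-0.64, adjusted p 0.0707), cry and cwo (-0.23) lost their calls and Pdp1 (0.55) and dco (0.59) gained one, and in Atx2-3xFLAG RIP per (-0.46) and tim (-0.49) lost theirs and dco (0.49) and sgg (0.36) gained one. All-gene calls then split into 1898 higher and 45 lower for control RIP against Input (185 and 271 with TMM), 1041 and 172 for Atx2-3xFLAG Input (550 and 466), 663 and 110 for Nab2-FLAG Input (452 and 292), 1334 and 299 for Atx2-3xFLAG RIP (829 and 636), 976 and 272 for Nab2-FLAG RIP (683 and 530), 92 and 89 for Atx2-3xFLAG against Nab2-FLAG in Input (103 and 160), and 136 and 93 for the same in RIP (127 and 135). Clock genes called in Atx2-3xFLAG against Nab2-FLAG Input went from 3 to 1 with library size alone, to 1 with DESeq2 and to 0 without the control and Nab2-FLAG lysates numbered 3. Without those lysates, Atx2-3xFLAG Input had 2 called in place of 5. In Nab2-FLAG Input 1 was called in place of 0, in each case tim, with no filter, with the replicate block and without the lysates numbered 4. Atx2-3xFLAG against Nab2-FLAG RIP had 1 called with no filter (vri) and 3 without the lysates numbered 4 (per, tim, vri), and Nab2-FLAG RIP had 4 without them. Leaving out the lysates numbered 3 or 4 together, and TMM within a pool, were chosen after the data had been seen. The causes of these changes were not tested.

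Leaving out 1 lysate at a time, the number of clock genes called ran from 0 to 0 for both associations, their difference and control RIP against Input, from 0 to 1 in Nab2-FLAG Input, 1 to 6 in Atx2-3xFLAG Input, 1 to 3 in Atx2-3xFLAG against Nab2-FLAG Input, 1 to 4 in Nab2-FLAG RIP, 3 to 5 in Atx2-3xFLAG RIP and 0 to 1 in Atx2-3xFLAG against Nab2-FLAG RIP. Lysates of different genotypes share only a number: deviations of same-numbered libraries correlated above 0.1 in 7 of 12 pairs in Input (median r = 0.128) and 4 of 12 in RIP (0.0720), although 8 of 12 libraries in each pool correlated best with their own number. The replicate block gave tim -0.46 (adjusted p 0.00445) in Nab2-FLAG Input, also called cyc (-0.72) and Pdp1 in Atx2-3xFLAG Input and raised all-gene calls from 6 to 48 for the Nab2-FLAG association, 3 to 33 for Atx2-3xFLAG, 0 to 5 for their difference and 263 to 414 for the tagged genotypes in Input, and lowered those of control RIP against Input from 456 to 280. Other changes past 1.5 times were 18 Nab2-FLAG associations and 2 differences with no filter, 0 associations with either protein without lysate coefficients, 1943 control RIP against Input calls with library size alone, and with DESeq2 1 Atx2-3xFLAG association, 275 control RIP against Input calls and 165 calls in place of 262 between the tagged genotypes in RIP. Over all alternatives, 1909 values of single clock genes stayed on their side of the threshold with no called value changing sign, 56 lost and 32 gained a call, and 2 turned. With 6 to 41 reads of per in control and Atx2-3xFLAG Input libraries, depth limits the per differences.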
